A study of Mus musculus with 31 samples.

Results

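The miR-30 family was followed across mouse embryonic stem cells (mESCs) that differ at *Ago2*, which encodes an Argonaute protein that holds mature miRNAs. Its members were taken by name, as every row of the deposited small-RNA-seq table that begins with mmu-miR-30 and the letter a, b, c, d or e. This gave 10 of the 507 miRNAs in the table, of which 5 come from the 5p arm of their hairpin (miR-30a-5p, miR-30b-5p, miR-30c-5p, miR-30d-5p and miR-30e-5p) and 5 from the 3p arm (miR-30a-3p, miR-30b-3p, miR-30c-1-3p, miR-30c-2-3p and miR-30d-3p). Small-RNA-seq covered 4 genotypes with 4 libraries each. All cells derive from the ES-E14TG2a line and were profiled in medium with Lif and inhibitors of differentiation, which holds mESCs in the pluripotent state. By the study's methods, WT cells are the line with a FLAG tag on both alleles of the Trim71 gene, which the edited lines also carry, and have no edit of *Ago2*. CLIPΔ cells lack, on both alleles, the region of the *Ago2* 3′UTR to which the RNA-binding protein Trim71 binds. *Ago2* KO cells carry a deletion in the coding sequence of *Ago2*, and *Ago2* KO/CLIPΔ cells carry both edits. The edited lines grew from single sorted cells, so a difference between genotypes and a difference between clones cannot be told apart. RNA-seq of the same genotypes had 2 libraries each of WT and CLIPΔ and 4 each of the lines without *Ago2*, and the Trim71-binding peaks came from CLIP-seq in the same FLAG-Trim71 mESCs.

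A miRNA hairpin is cut by Drosha and Dicer into a duplex of a 5p and a 3p strand, one of which is usually kept by an Argonaute while the other, the passenger, is lost. The loaded strand finds mRNAs mainly through its seed, bases 2 to 8, and lowers their stability and translation. The miR-30 family is known from work on differentiation, autophagy, mitochondrial fission and the epithelial-mesenchymal transition, and its 5p strands share a single seed. A loaded miRNA is protected by its Argonaute, so its level can depend on the supply of Argonaute, which small-RNA libraries do not measure.

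The sequences show what the members share and where near-identical copies could exchange reads. RefSeq (GRCm38.p6) gave the mature sequences of 6 of the 10 members, and miR-30b-5p, miR-30b-3p, miR-30d-5p and miR-30d-3p are given by name only. They are written 5′ to 3′ with the seed in capitals.

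miR-30a-5p: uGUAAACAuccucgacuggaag

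miR-30e-5p: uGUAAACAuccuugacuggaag

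miR-30c-5p: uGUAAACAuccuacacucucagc

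miR-30a-3p: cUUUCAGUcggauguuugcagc

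miR-30c-1-3p: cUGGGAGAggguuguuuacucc

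miR-30c-2-3p: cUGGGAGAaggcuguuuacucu

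The 5p members shown share the seed GUAAACA. miR-30a-5p and miR-30e-5p differ at 1 of 22 positions, while each differs from miR-30c-5p at 5 of 22. The 3p strands fall into separate seeds, UUUCAGU for miR-30a-3p and UGGGAGA for both miR-30c passengers, which differ from each other at 3 of 22 positions. The reference holds miR-384-5p with the seed of the 5p strands and miR-6958-5p with that of the miR-30c passengers, but neither is a row of the table used here. The same holds for miR-30e-3p, which shares the seed of miR-30a-3p and differs from it at 1 of 22 positions, and whether its reads entered the values of miR-30a-3p was not tested.

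The hairpins sit in pairs. Mir30a (chr1:23272269-23272339, plus strand), which gives miR-30a-5p at chr1:23272274-23272295, lies 19361 nt from Mir30c-2 (chr1:23291701-23291784, plus strand), which overlaps the exon of the lincRNA Gm27028. Mir30a itself lies in no annotated gene. On chromosome 4, Mir30e (chr4:120772606-120772697, minus strand), the source of miR-30e-5p at chr4:120772660-120772681, and Mir30c-1 (chr4:120769534-120769622, minus strand) are 2983 nt apart, both in introns of Nfyc, which encodes a subunit of the CCAAT-binding factor NF-Y. In all 6 Nfyc transcripts that span them, neither hairpin touches an exon. miR-30c-5p is made by both Mir30c-1 and Mir30c-2 with the same sequence, so a read of it has 2 places in the genome, as holds for 17 miRNAs of the table. None of the 498 deposited Trim71-binding peaks was within 1000 nt of Mir30a, Mir30c-1, Mir30c-2 or Mir30e, and none was in Nfyc or Gm27028.

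Levels are given as RPM, here the deposited TPM value (a value per length) rescaled to a total of 1000000 in each library and still divided by length. A higher RPM is thus a higher share of the miRNA values, which need not be a higher amount per cell. The number of reads behind them was inferred from the steps between low values, which were whole multiples of a smallest step for 99.5% to 100% of them. By this inference the WT libraries held 5488623 to 8419614 miRNA reads and the CLIPΔ libraries 3165436 to 7946835, whereas the *Ago2* KO libraries held 851621 to 1111621 and the *Ago2* KO/CLIPΔ libraries 897464 to 1355799, so depth and the *Ago2* genotype cannot be told apart. Of the mESC markers listed for a check of the cells, the 7 of 8 present in the RNA-seq table had 56.4 to 7361 TPM, whereas the 9 of 10 listed markers of endoderm, mesoderm, neural cells and fibroblasts that were present had 0.02 to 22.8 TPM, the highest being T. The ESC-specific miRNAs miR-290 to miR-295 made up 28.3% to 45.8% of miRNA values.

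In WT mESCs the family was abundant and, in the values as counted, dominated by 3 of its 5p strands. It held 1.57% to 2.5% of all miRNA values in the WT libraries (mean 2.04% ± 0.39, SD, n = 4). In such bulk libraries a change in the number of cells of a kind and one in the RNA per cell cannot be told apart. miR-30a-5p, miR-30d-5p and miR-30e-5p together made up 89.7% to 93.9% of the family in each of the 16 libraries. By WT mean, miR-30d-5p came first at 7472 ± 122 RPM (SD, n = 4), which placed it at rank 22 of the 507 miRNAs, followed by miR-30a-5p at 6456 ± 1814 and miR-30e-5p at 4867 ± 2048. These 3 could not be ordered, because the ranges of neighbours in the order overlapped. miR-30a-3p at 921 ± 21.0 RPM and miR-30b-5p at 290 ± 30.7 RPM followed, each apart from its neighbours. miR-30b-3p (157 ± 21.9) and miR-30c-1-3p (148 ± 21.1) overlapped, and so did miR-30d-3p (65.2 ± 33.5) and miR-30c-2-3p (64.9 ± 7.56).

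miR-30c-5p was nearly absent from the values as counted. Its levels were 0.07 to 0.82 RPM in WT and at most 7.13 RPM in any library, and it rested on only 1 to 20 inferred reads per library, whereas miR-30c-1-3p had 145 to 1277 and miR-30c-2-3p 150 to 606. As counted, the strand that is usually taken as the guide was thus below both of its passengers in all 16 libraries. Whether this holds for its level in the cells was not tested. How reads that fit both hairpins were counted is not given in the sources used here, and the part of the 2 loci in this value was not tested. The family's share of all miRNA values, the order of its members and their parts of the family include miR-30c-5p only as counted.

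**Figure D1:**
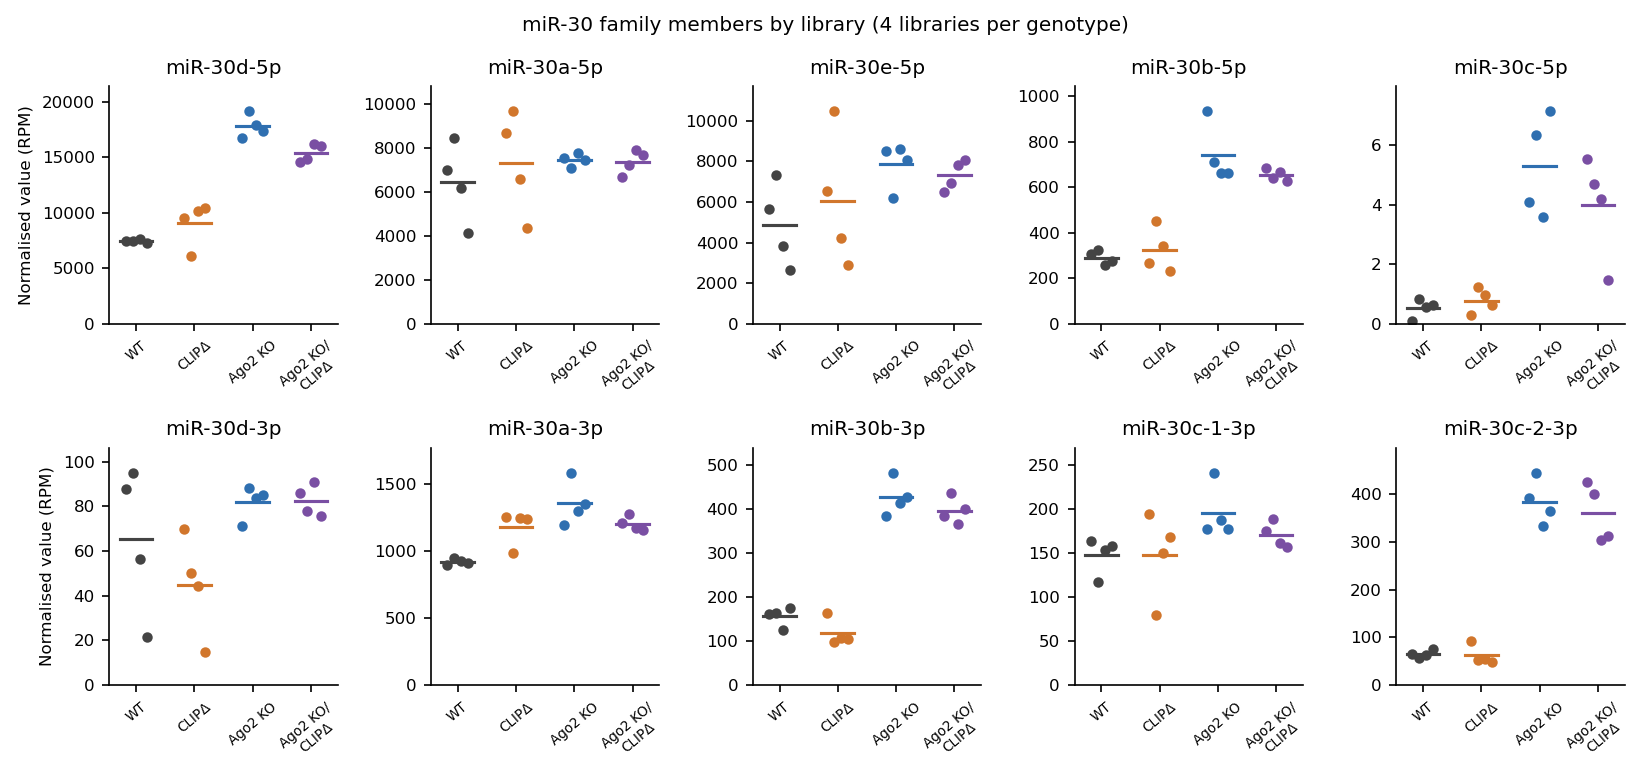
Level of each of the 10 miR-30 members (RPM, linear axis from 0, scaled for each panel) in the 16 small-RNA-seq libraries, with 1 point per library and the genotype mean as a bar. miR-30d-5p stands at 7309 to 7604 RPM in the WT libraries and 16718 to 19143 RPM in the *Ago2* KO libraries, and miR-30c-5p stays at or below 7.13 RPM throughout.

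Within WT and within CLIPΔ, some members varied widely between libraries while others hardly moved. The table marks the libraries of these genotypes A, B, C and D. miR-30e-5p was at 5665, 7316, 3823 and 2662 RPM in WT A, B, C and D and at 6539, 10467, 4240 and 2889 RPM in CLIPΔ A, B, C and D. miR-30a-5p was at 7033, 8474, 6182 and 4135 RPM in the WT libraries and at 8699, 9682, 6595 and 4343 RPM in the CLIPΔ libraries, in the same order. For both, B was the highest and D the lowest library in each genotype. miR-30d-3p also had its lowest value in D, at 21.7 RPM in WT and 15.0 RPM in CLIPΔ, against 56.2 to 94.9 RPM in the other WT libraries and 44.5 to 69.8 RPM in the other CLIPΔ libraries.

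By contrast, miR-30d-5p was at 7490, 7485, 7604 and 7309 RPM in WT A, B, C and D. Its SD of log2 RPM in WT, 0.02, was smaller than that of every other miRNA tested in CLIPΔ against WT, for which the median was 0.32. miR-30a-3p was nearly as even in WT at 899, 946, 930 and 910 RPM (SD 0.03), although its partner strand miR-30a-5p had an SD of 0.44 in the same libraries and miR-30e-5p one of 0.64. Across the 7 members tested in this comparison, deviations from the genotype mean in WT and CLIPΔ libraries of the same letter had a Pearson r of 0.81 over 28 points, which share 8 libraries and are not independent. In *Ago2* KO and *Ago2* KO/CLIPΔ, where the median SD over the same miRNAs was 0.17 and 0.11, miR-30a-5p had SDs of 0.05 and 0.11.

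**Figure D2:**
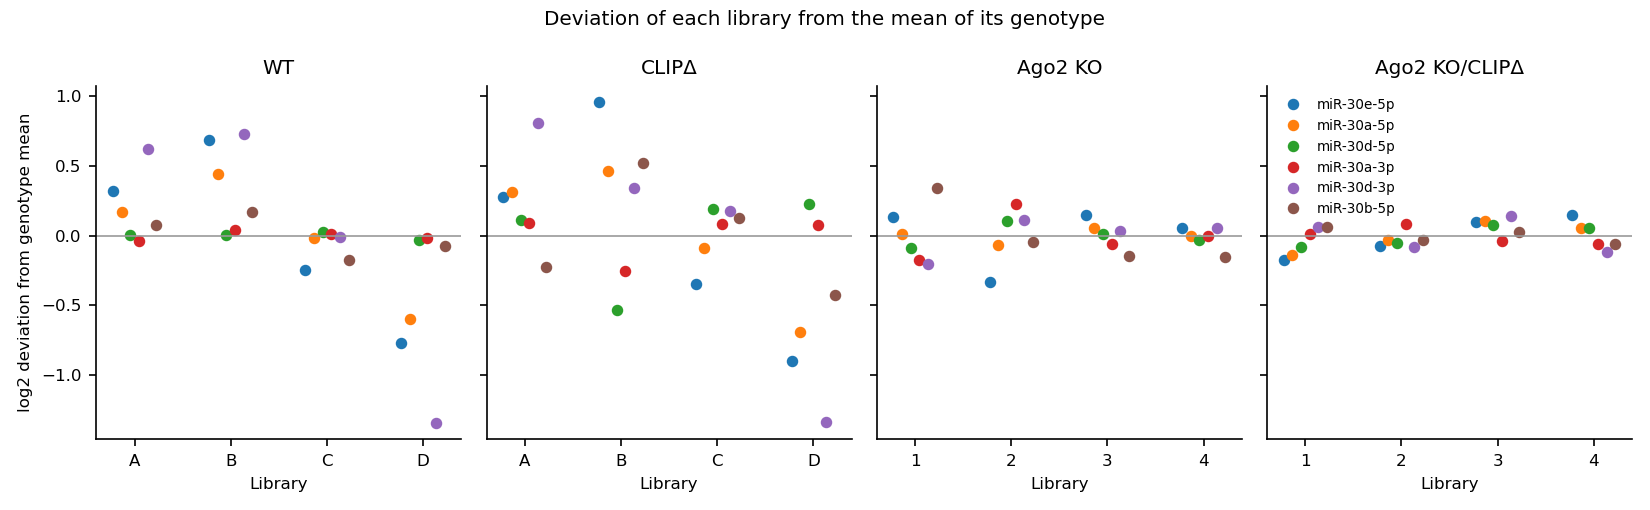
Deviation of 6 miR-30 members from their genotype mean (log2 RPM + 1) in each library, 1 panel per genotype. miR-30e-5p and miR-30a-5p are highest in B and lowest in D of both WT and CLIPΔ, while miR-30d-5p and miR-30a-3p stay near 0 in WT.

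The first comparison asked whether losing the Trim71-binding region of the *Ago2* 3′UTR changed these miRNAs. CLIPΔ and WT did not differ by the test for any member: 0 of the 7 members that reached a mean of 100 in the deposited values passed an adjusted p of 0.05 (limma on log2(RPM + 1), Benjamini-Hochberg over 227 miRNAs), beside 27.8% of all miRNAs tested. At an unadjusted p under 0.05 there was 1 member, miR-30a-3p, and edgeR on the inferred reads also called 0. The members' median log2 fold change was 0.17, against 0.04 for all 227 miRNAs, and -0.035 against -0.16 with libraries centred on their median. Of all calls, 69.8% were higher in CLIPΔ, 53.3% with that centring and 59.0% by edgeR. miR-30a-3p was at 1255, 986, 1252 and 1244 RPM in CLIPΔ A, B, C and D and so stood above every WT library (899 to 946). It was the 1 member of 7 whose genotypes did not overlap, beside 30% of all tested miRNAs. Its log2 fold change was 0.35 ± 0.16 (SE, n = 4 and 4, limma adjusted p = 0.122).

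The call on miR-30a-3p turned on how the libraries were matched. With the letter as a block, used because libraries of the same letter deviated together, its adjusted p was 0.0436 (limma) and it was the only member called, while the count over all miRNAs went from 63 to 125. Without CLIPΔ library B, both miR-30a-3p (log2 fold change 0.44 ± 0.13, limma adjusted p = 0.0368) and miR-30d-5p (0.42 ± 0.12, adjusted p = 0.0269) were called. miR-30d-5p was at 6138 RPM in CLIPΔ B and at 9569, 10129 and 10390 RPM in CLIPΔ A, C and D, against 7309 to 7604 RPM in WT. The only member with a lower mean by more than its SE was miR-30b-3p, at 163, 96.9, 107 and 106 RPM in CLIPΔ A, B, C and D and 162, 165, 125 and 174 RPM in WT, a log2 difference of -0.42 ± 0.21 (limma adjusted p = 0.177). miR-30a-5p, miR-30b-5p, miR-30c-1-3p, miR-30d-5p and miR-30e-5p had log2 differences of -0.06 to 0.25.

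The share of the family in CLIPΔ was 1.94% to 2.80% (mean 2.43% ± 0.39, SD, n = 4), which overlapped WT. In the same libraries the miRNAs named let-7 or miR-98, of either strand, took 5.94% to 7.24% of values, against 0.35% to 1.11% in the other genotypes. Removing them from the library total raised the members' median log2 fold change to 0.25 and left 0 members called.

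Loss of *Ago2* went with larger differences in the family than the CLIPΔ edit, as it did over all miRNAs. Of these, 199 of 240 were called, against 63 of 227 in CLIPΔ against WT. RNA-seq of the targeted gene followed the labels, with *Ago2* at 28.2 and 21.6 TPM in WT, 27.3 and 20.3 in CLIPΔ, 1.67 to 2.29 in *Ago2* KO and 1.51 to 2.87 in *Ago2* KO/CLIPΔ (log2 fold change of *Ago2* KO against WT -3.13 ± 0.14, limma adjusted p = 0.000128). These values are of mRNA. By western blot the study reports more Ago2 protein in CLIPΔ than in WT, with no rise of its mRNA. Of 8 members tested in *Ago2* KO against WT, 7 were higher and 0 lower, beside 50% of all 240 miRNAs higher and 32.9% lower. Of these 7, miR-30c-2-3p reached the minimum mean only through its *Ago2* KO libraries (mean 384 RPM, against 64.9 in WT). It enters this count, the next and the members' median through the group where it was high. In the fit without the filter it was also called (limma adjusted p = 5.01e-08). The ranges of *Ago2* KO and WT did not overlap for 6 of the 8, against 78.3% of all miRNAs tested. The members' median log2 fold change was 1.02, against 0.44 for all tested miRNAs. As a share of all miRNA values the family was at 3.60% to 3.73% in *Ago2* KO (mean 3.63% ± 0.07, SD, n = 4), above each WT library.

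The scaling of the libraries sets how many of these differences stand. The median miRNA was itself 0.44 higher in *Ago2* KO on the log2 scale, 0.16 higher when libraries were centred on the median of the tested miRNAs' log values, and 0.20 lower by edgeR with TMM on inferred reads. Across these scalings 60.3%, 54.6% and 46.6% of all calls were higher. Under both alternatives 4 of the 8 members were still called, all higher: miR-30b-5p, miR-30b-3p, miR-30d-5p and miR-30c-2-3p. Of all 240 miRNAs tested, 106 were called higher and 88 lower with the centring, and 89 higher and 102 lower by edgeR. The next paragraphs take those 4 first.

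miR-30c-2-3p, the passenger from the chromosome 1 hairpin, differed most. It was at 64.3, 56.9, 63.4 and 75.1 RPM in WT A, B, C and D and at 393, 445, 334 and 366 RPM in *Ago2* KO 1, 2, 3 and 4. The lowest *Ago2* KO library thus lay far above the highest WT library, and the log2 fold change was 2.55 ± 0.15 (SE, n = 4 and 4, limma adjusted p = 7.31e-08) and 1.96 by edgeR. Its relative from chromosome 4, miR-30c-1-3p, with the same seed, was at 163, 117, 154 and 158 RPM in WT and 177, 241, 188 and 177 RPM in *Ago2* KO. That is 0.40 ± 0.17 on the log2 scale (limma adjusted p = 0.0472), no higher than the median miRNA (-0.04 relative to it), and the call remained in 1 of 8 fits that left out a library.

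The ratio of these passengers changed sides. miR-30c-2-3p over miR-30c-1-3p was 0.39 to 0.49 in WT and 0.29 to 0.66 in CLIPΔ, and 1.78 to 2.21 in *Ago2* KO and 1.89 to 2.43 in *Ago2* KO/CLIPΔ. The scaling of a library does not enter this ratio, which was formed after the fold changes were known and was not tested. Since the sequences differ at only 3 of 22 positions, reads with errors could pass between them, and that was not tested.

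**Figure D3:**
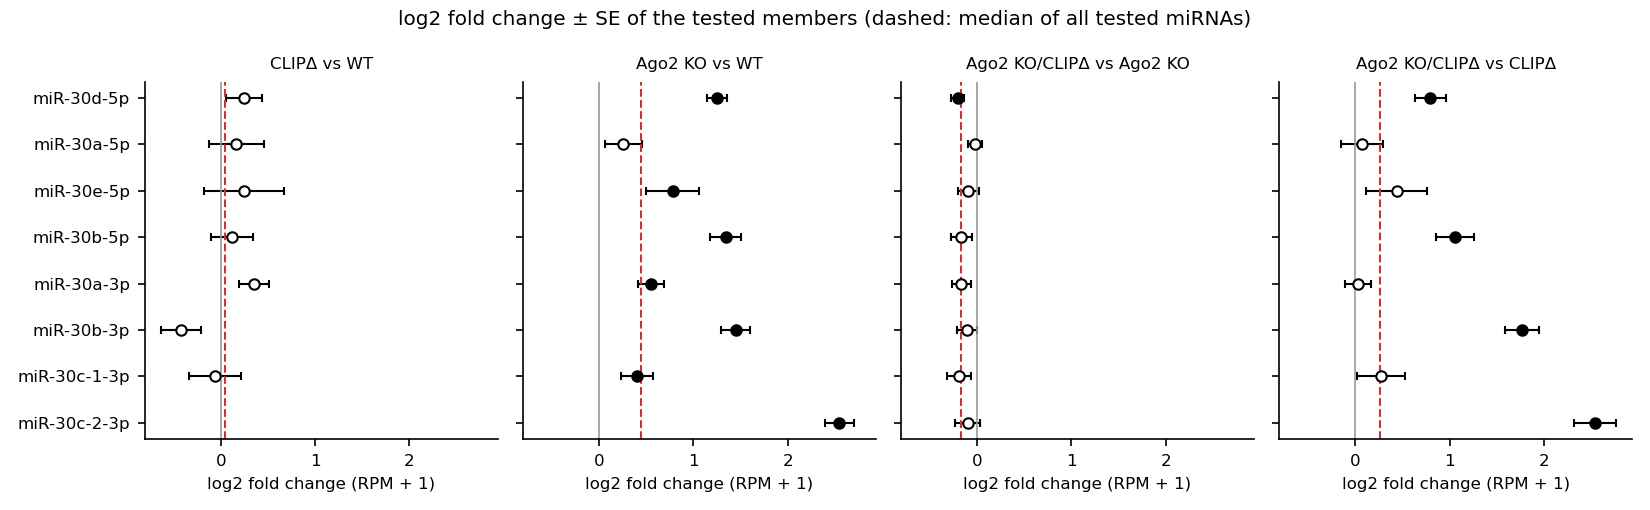
log2 fold change (RPM + 1) ± SE of the tested members in the 4 comparisons, filled where the limma adjusted p was below 0.05, with the median of all tested miRNAs as a dashed line. miR-30c-2-3p stands at 2.55 in *Ago2* KO against WT and at 2.54 in *Ago2* KO/CLIPΔ against CLIPΔ, apart from the other members in both.

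Both strands of miR-30b were higher in *Ago2* KO. miR-30b-5p was at 304, 325, 255 and 275 RPM in WT A, B, C and D and at 932, 711, 662 and 661 RPM in *Ago2* KO 1, 2, 3 and 4, and miR-30b-3p at 162, 165, 125 and 174 RPM in WT and 384, 482, 414 and 428 RPM in *Ago2* KO. No *Ago2* KO library overlapped WT for either strand. Their log2 fold changes were 1.34 ± 0.16 (limma adjusted p = 1.43e-05) and 1.45 ± 0.16 (6.29e-06), and 0.76 and 0.85 by edgeR. miR-30d-5p, the first member in WT, was at 16718, 19143, 17944 and 17396 RPM in *Ago2* KO 1, 2, 3 and 4, with a log2 fold change of 1.25 ± 0.10 (limma adjusted p = 6.42e-07) and 0.65 by edgeR. It accounted for 49.0% ± 2.89 of the family's values in *Ago2* KO against 37.6% ± 7.13 in WT (SD, n = 4).

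The remaining members depended on the scaling. miR-30e-5p was at 8538, 6173, 8638 and 8072 RPM in *Ago2* KO 1, 2, 3 and 4, which overlaps its wide WT range of 2662 to 7316 RPM, with a log2 fold change of 0.78 ± 0.28 (limma adjusted p = 0.0229), kept in 5 of 8 fits without 1 library, and 0.10 by edgeR. miR-30a-3p was at 1198, 1586, 1298 and 1351 RPM, above each WT library, with 0.55 ± 0.13 (limma adjusted p = 0.00282), which was -0.04 by edgeR. miR-30a-5p was at 7544, 7121, 7773 and 7452 RPM, inside its WT range, and was the 1 member not called (0.26 ± 0.20, limma adjusted p = 0.238), with -0.39 by edgeR. The nearly identical miR-30a-5p and miR-30e-5p thus had log2 fold changes of 0.26 and 0.78, and the difference between them was not tested.

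miR-30d-3p and miR-30c-5p fell below the minimum mean deposited value of 100 and were tested only in the fit without this filter, where miR-30c-5p was called (log2 fold change 2.03, limma adjusted p = 0.000156) and miR-30d-3p was not (0.52, adjusted p = 0.226). miR-30d-3p was at 87.8, 94.9, 56.2 and 21.7 RPM in WT A, B, C and D and at 71.0, 88.2, 83.7 and 85.1 RPM in *Ago2* KO 1, 2, 3 and 4, so the genotypes overlapped. miR-30c-5p was at 3.58 to 7.13 RPM in *Ago2* KO, above the 0.07 to 0.82 RPM of WT, from 7 to 14 inferred reads per *Ago2* KO library.

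The same test between *Ago2* KO/CLIPΔ and CLIPΔ, cells that all lack the Trim71-binding region, used other libraries. Here 4 of 8 members were higher and 0 lower, beside 46.2% and 36.1% of all 249 miRNAs tested, and the same 4 members were called as under every scaling above. Again miR-30c-2-3p reached the minimum mean only through the libraries where it was high (mean 361 RPM in *Ago2* KO/CLIPΔ, against 62.4 in CLIPΔ). The genotypes did not overlap for 4 members, against 79.1% of all miRNAs tested. miR-30c-2-3p was at 92.3, 52.8, 55.7 and 48.9 RPM in CLIPΔ A, B, C and D and at 425, 401, 304 and 312 RPM in *Ago2* KO/CLIPΔ 1, 2, 3 and 4, a log2 fold change of 2.54 ± 0.22 (limma adjusted p = 8.77e-07). The groups were far apart. miR-30b-3p followed at 1.77 ± 0.18 (limma adjusted p = 3.78e-06), then miR-30b-5p at 1.06 ± 0.20 (0.000479) and miR-30d-5p at 0.80 ± 0.17 (0.00106). The members' median was 0.62, against 0.27 for all miRNAs. miR-30a-5p (0.07 ± 0.22), miR-30a-3p (0.03 ± 0.14), miR-30c-1-3p (0.27 ± 0.25) and miR-30e-5p (0.44 ± 0.33) did not pass the test. Without CLIPΔ library B, where it was highest, miR-30e-5p was called (0.76 ± 0.23, limma adjusted p = 0.0100), and without CLIPΔ library D it was at 0.14 ± 0.24.

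Between the genotypes that both lack *Ago2*, the family differed little. Of 8 members tested in *Ago2* KO/CLIPΔ against *Ago2* KO, 1 was lower and 0 higher, beside 30.6% and 21.6% of the 232 miRNAs tested. That member was miR-30d-5p, at 14584, 14826, 16240 and 16052 RPM in *Ago2* KO/CLIPΔ 1, 2, 3 and 4, below each *Ago2* KO library (16718 to 19143), as the only member not overlapping beside 48.3% of all tested miRNAs, with a log2 difference of -0.21 ± 0.07 (SE, n = 4 and 4, limma adjusted p = 0.0255). The median of all tested miRNAs was -0.17, so relative to it miR-30d-5p was at -0.04. By edgeR, where 75% of all calls were higher against 41.3% by limma, the difference was -0.05 (adjusted p = 0.670), and the limma call was lost without *Ago2* KO library 3 or *Ago2* KO/CLIPΔ library 1 or 2 (5 of 8 such fits kept it). Without *Ago2* KO library 2, miR-30e-5p was called as well (adjusted p = 0.0388). The members' median was -0.14, and the 7 uncalled members had log2 differences of -0.19 to -0.02. The share of the family was 3.07% to 3.48% (mean 3.30% ± 0.20, SD, n = 4).

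Whether the CLIPΔ edit went with a different change in the presence and absence of *Ago2* was tested as an interaction over all 16 libraries. It was below 0 for miR-30a-3p (-0.52 ± 0.18 on the log2 scale, limma adjusted p = 0.0205), the 1 member of 8 called, beside 49.4% of all 249 miRNAs tested. The separate differences were 0.35 in CLIPΔ against WT and -0.17 in *Ago2* KO/CLIPΔ against *Ago2* KO. All 16 fits without 1 library kept the call, which was lost when libraries were centred on their median. miR-30d-5p had an interaction of -0.45 ± 0.20 (limma adjusted p = 0.0655) and was called without CLIPΔ library B. This fit does not use the pairing of libraries by letter or number. With each pair as a replicate block, an alternative chosen after seeing the data, both miR-30a-3p (limma adjusted p = 0.00738) and miR-30d-5p (adjusted p = 0.0261) were called, and the count over all miRNAs went from 123 to 161.

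Comparing both arms of 1 hairpin removes the scaling of the library. Both arms could be compared for Mir30a, Mir30b and Mir30d. In WT the 5p strand of miR-30a was 4.54 to 8.94 times the 3p strand, that of miR-30b 1.57 to 2.04 times, and that of miR-30d 78.1 to 322 times. The ratio of miR-30d was 84.3, 78.1, 133 and 322 in WT A, B, C and D and 135, 120, 222 and 650 in CLIPΔ A, B, C and D. It was highest in D of both genotypes, where miR-30d-3p was lowest, and B was the lowest of both. In *Ago2* KO and *Ago2* KO/CLIPΔ it kept to 202 to 232 and 168 to 210.

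**Figure D4:**
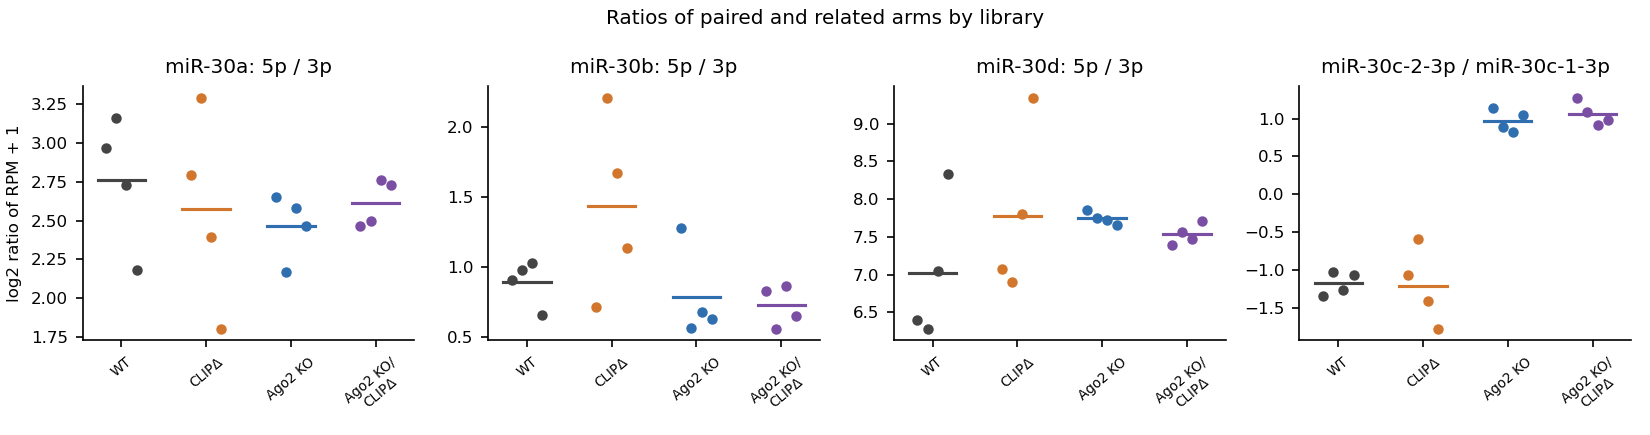
log2 ratio of the 5p to the 3p strand of miR-30a, miR-30b and miR-30d, and of miR-30c-2-3p to miR-30c-1-3p, in each library (points) with the genotype mean (bar). The ratio of the miR-30c passengers lies below 0 in all WT and CLIPΔ libraries and above 0 in all *Ago2* KO and *Ago2* KO/CLIPΔ libraries.

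In CLIPΔ against WT none of the 3 arm ratios passed, beside 0 of 108 hairpins (limma, 0% called), and 0 of the 3 had an unadjusted p under 0.05. With the letter as a block the miR-30d ratio was higher in CLIPΔ in log2 terms by 0.76 ± 0.20 (limma adjusted p = 0.0497), and 4 of all hairpins were called. In *Ago2* KO against WT none of the 3 passed either (0 at an unadjusted p under 0.05), although 76.3% of 118 hairpins did, with log2 differences of -0.29 ± 0.25 for miR-30a, -0.10 ± 0.21 for miR-30b and 0.73 ± 0.39 for miR-30d. Library WT D decided this count: without it miR-30a (-0.49 ± 0.19, limma adjusted p = 0.0352) and miR-30d (1.17 ± 0.20, adjusted p = 0.000269) were both called. No ratio of the 3 passed in *Ago2* KO/CLIPΔ against *Ago2* KO, beside 0% of 109 hairpins, and 0 had an unadjusted p under 0.05. The miR-30b ratio was lower in *Ago2* KO/CLIPΔ against CLIPΔ (-0.71 ± 0.30, limma adjusted p = 0.0472), beside 83.2% of 119 hairpins, with 2 of 8 fits without 1 library keeping the call. The CLIPΔ ratios behind it were 1.64, 4.62, 3.18 and 2.19 in A, B, C and D, against 1.47 to 1.81 in *Ago2* KO/CLIPΔ.

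Nfyc, whose introns hold Mir30e and Mir30c-1, was followed by RNA-seq, for which depth is unknown. It was at 11.8 and 9.45 TPM in WT, 12.8 and 8.92 in CLIPΔ, 8.07, 8.76, 7.56 and 7.75 in *Ago2* KO and 7.86, 8.01, 6.46 and 6.74 in *Ago2* KO/CLIPΔ. Both genotypes without *Ago2* were below those with it, with log2 differences of -0.36 ± 0.12 in *Ago2* KO against WT (limma on log2(TPM + 1), adjusted p = 0.0316) and -0.50 ± 0.17 in *Ago2* KO/CLIPΔ against CLIPΔ (adjusted p = 0.0413). The median of all genes was itself at -0.26 and -0.25 in these comparisons, and the calls remained in 2 of 6 and 1 of 6 fits that left out a library. The strands from these introns, miR-30e-5p and miR-30c-1-3p, had log2 fold changes of 0.78 and 0.40 in the first comparison and 0.44 and 0.27 in the second by limma, the value of miR-30c-1-3p being below 0 by edgeR in both and that of miR-30e-5p in the second.

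A list of 15 mRNAs described in the literature as miR-30 targets was then read in the RNA-seq data. Of these, 12 were in the table used here, and Runx2, Dll4 and Lhx1 were not. Some carry the 8mer that pairs with the 5p seed, TGTTTACA on the mRNA strand, in their longest annotated 3′UTR: Twf1 2 times, and Snai1, Becn1, Atg5, Itgb3, Dnm1l and Socs1 once each. Smad1, Ctgf, Vim and Ppp3ca had no match even to the 7-base seed there, and Smad1 and Ctgf are among the lower targets counted next. Of 10 targets tested in *Ago2* KO against WT, 7 were lower and 1 was higher, beside 43.5% and 14.1% of all 11297 genes. The list's median log2 fold change was -0.56, against -0.26 for all genes, and each of the 7 was also below that median.

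The target that rose was Snai1, a transcription factor of the epithelial-mesenchymal transition. It was at 18.4 and 18.1 TPM in WT and at 27.7, 24.9, 25.1 and 26.9 TPM in *Ago2* KO, with no overlap and a log2 fold change of 0.50 ± 0.09 (limma adjusted p = 0.00279). In *Ago2* KO/CLIPΔ its levels were 22.9 to 25.5 TPM, against 18.7 and 15.9 TPM in CLIPΔ (0.49 ± 0.11, limma adjusted p = 0.0121). Both calls held in all 6 fits that left out a library.

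The targets that fell in *Ago2* KO included those of autophagy and mitochondrial fission. Becn1, a subunit of the kinase complex that starts autophagosome formation, was at 55.2 and 60.3 TPM in WT and 34.3 to 38.0 TPM in *Ago2* KO (-0.65 ± 0.09, limma adjusted p = 0.00108). Dnm1l, the GTPase that divides mitochondria, was at 40.7 and 34.2 TPM in WT and 17.7 to 19.1 TPM in *Ago2* KO (-0.99 ± 0.10, limma adjusted p = 0.000403). For both, each *Ago2* KO library lay below both WT libraries.

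Prdm1, a transcriptional repressor of the germ line and B cells, had a log2 fold change of -1.08 ± 0.13 and Smad1, a signal transducer of bone morphogenetic proteins, one of -0.67 ± 0.11. In this comparison Prdm1, Smad1, Becn1 and Dnm1l were called in all 6 fits without 1 library. Such fits say little where libraries 1 and 2 lay close together and apart from 3 and 4. Smad1 was at 2.52, 2.41, 2.97 and 2.93 TPM in *Ago2* KO 1, 2, 3 and 4. In *Ago2* KO/CLIPΔ 1, 2, 3 and 4, Becn1 was at 30.2, 30.2, 44.3 and 43.8 TPM. Dnm1l was at 13.9, 13.7, 22.5 and 23.4 TPM in the same libraries, where Nfyc and Ctgf were also split. Snai1 did not show this split, and the part of the split in the SEs was not tested. Atg5, which acts in autophagosome elongation (-0.46 ± 0.14), and Twf1, an actin-binding protein (-0.43 ± 0.15), were called in 3 and 1 of them. Ctgf, a matricellular protein, was at 720 and 134 TPM in the WT libraries and 91.5 to 108 TPM in *Ago2* KO, so that its log2 fold change of -1.63 ± 0.56 became -0.42 ± 0.11 without WT library 1, and it was called in 2 of the 6 fits. Socs1 (0.04 ± 0.19) and Vim (0.21 ± 0.14) did not pass, Itgb3 (0.29 to 0.43 TPM in WT and *Ago2* KO) and Ppp3ca (0.44 to 1.25 TPM) were below the minimum mean of 1 TPM.

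**Figure D5:**
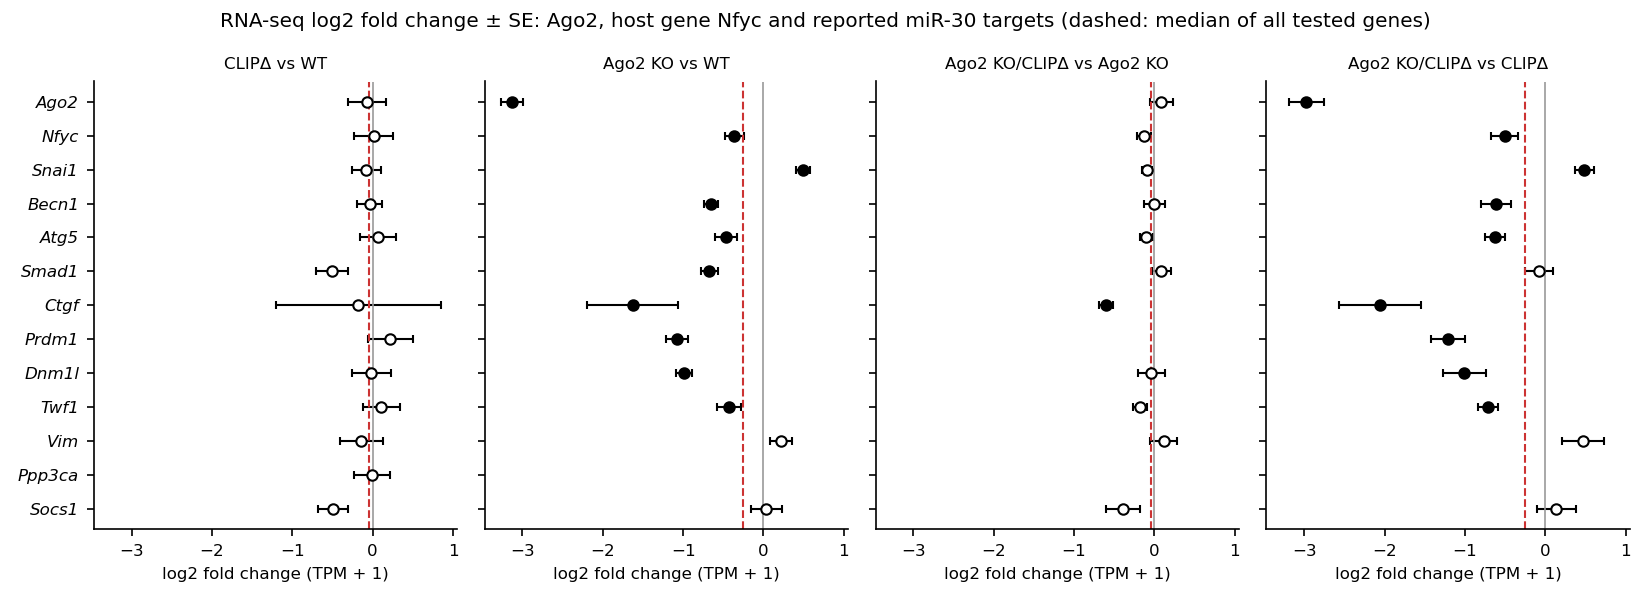
log2 fold change (TPM + 1) ± SE of *Ago2*, Nfyc and the listed miR-30 targets by RNA-seq, filled where the limma adjusted p was below 0.05, with the median of all tested genes as a dashed line. In *Ago2* KO against WT, Snai1 is at 0.50, *Ago2* at -3.13 and the other called genes between -1.63 and -0.36.

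Of 10 targets tested in *Ago2* KO/CLIPΔ against CLIPΔ, 6 were lower and 1, Snai1, higher, beside 37.2% and 10.7% of all genes. Smad1 did not pass here (-0.08 ± 0.17, limma adjusted p = 0.725), and the call on Becn1 (-0.61 ± 0.19, adjusted p = 0.0319) remained in 2 of 6 fits without 1 library and that on Dnm1l in 5. The count of all genes called in this comparison, 5394, fell to 2797 without CLIPΔ library 1. In CLIPΔ against WT none of 11 passed, beside 0% of 11642 genes (limma), with 2 of the list (Socs1 and Smad1) and 604 of all genes at an unadjusted p under 0.05, from 2 libraries per genotype. The 0 genes became 51 and 180 without CLIPΔ library 1 and 2. Ctgf was the 1 of 9 targets that passed in *Ago2* KO/CLIPΔ against *Ago2* KO, beside 3.22% of all genes, a count of 353 that fell to 135 to 255 when 1 library was left out. Its levels were 91.5 to 108 TPM in *Ago2* KO and 59.0 to 74.6 TPM in *Ago2* KO/CLIPΔ (-0.60 ± 0.09, limma adjusted p = 0.00948). In *Ago2* KO, libraries 1 and 2 were at 91.5 and 95.1 TPM and 3 and 4 at 108 and 106. In *Ago2* KO/CLIPΔ they were at 60.4 and 59.0 TPM and at 74.6 and 69.5. The p-value counts the 4 libraries of a genotype as separate replicates, and the part of this split was not tested.

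The same site was counted over all mRNAs. The 8mer TGTTTACA was found in the 3′UTR of 1139 of 14190 RNA-seq genes with an annotated 3′UTR (8.03%), read on the mRNA strand only. In *Ago2* KO against WT the median log2 fold change was -0.49 over 846 tested genes with the 8mer, -0.21 over 9206 with no match to the 7-base seed, and -0.59 over 287 with at least 2 such matches. The medians with the 8mer and with no match were -0.48 and -0.21 in *Ago2* KO/CLIPΔ against CLIPΔ. In CLIPΔ against WT they were -0.07 and -0.05, and in *Ago2* KO/CLIPΔ against *Ago2* KO -0.05 and -0.05. Genes with matches thus had the lower medians in both comparisons of cells without and with *Ago2*. They also had longer 3′UTRs, with medians of 2392 nt with the 8mer, 3639 nt with at least 2 seed matches and 919 nt with none, and the part of length in these medians was not tested.

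Across the 16 libraries, the miRNAs whose levels were most like the mean log2 level of the 5p members, of 241 candidates, were miR-192-5p (Pearson r = 0.96), miR-881-3p (0.96), miR-148a-3p (0.96), miR-7a-5p (0.96) and miR-140-3p (0.96). All 5 had higher means in both genotypes that lack *Ago2* than in WT and CLIPΔ, for instance miR-192-5p with means of 540 and 859 RPM in WT and CLIPΔ and 1810 and 1572 RPM in *Ago2* KO and *Ago2* KO/CLIPΔ. Because the mean of the 5p members was itself higher there, this follows largely from how the 5 were picked. Within single genotypes the correlations ranged from -0.67 to 0.98. The libraries share genotype and depth class, and the mean of the 5p members includes miR-30c-5p, which rests on few reads.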

How the data were processed

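Small RNAs of 16 libraries and RNA-seq of 12 were used. Per the labels and the study's methods, the authors mapped reads with HISAT2 (2.1.0) to mm10, counted them with HTSeq and deposited both tables as TPM. The authors deposited the Trim71-binding peaks with whole-number read counts, called over a size-matched input from 2 replicates; only their positions were used. No column of fold changes was used. Values of miRNAs were rescaled to the same total in each library (RPM).

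Tests used limma (3.58.1, R 4.3.3) with an intensity trend on log2(value + 1), over miRNAs reaching a mean of 100 in the deposited values, or genes reaching a mean of 1 TPM, in the libraries compared, two-sided, with Benjamini-Hochberg adjustment over all of them and a threshold of 0.05. Fold changes on this scale understate changes of low values. The interaction and one alternative used all 16 libraries. Arm ratios used hairpins whose weaker arm reached a mean of 10. The study used a count test; as the tables hold TPM, edgeR (4.0.16, TMM, quasi-likelihood) was run only as an alternative, on reads inferred from the steps between low values (whole within 0.1 of a step). The scripts were tested on simulated data.

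Every row that the name rule takes was described, and the members, target list and comparisons were chosen with earlier results of these data known. The target list first held one more mRNA, which is not reported here. Which clone or culture each library came from is not given in the sources used here, so p-values measure the spread between these libraries, which may be technical.

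Libraries of CLIPΔ and WT with the same letter deviated together over the tested miRNAs (r = 0.38 for A, 0.71 for B, 0.35 for C and 0.74 for D), as did *Ago2* KO/CLIPΔ and *Ago2* KO libraries with the same number (0.16 to 0.52). The letters and numbers were therefore taken as pairing these libraries, from the data, and a fit with a replicate block was run beside each, for the interaction as an alternative chosen after seeing the data. Hairpin and mature positions and sequences are from RefSeq GRCm38.p6, the same build as mm10, and 3′UTRs from the GENCODE annotation. Errors are SDs or limma standard errors over libraries.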

Additional observations from a re-analysis of the deposited data

Results flagged for a closer look

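Of 84 sets of 4 libraries (a member, ratio, share or listed gene in a genotype), 6 had a library whose gap to its nearest neighbour exceeded Dixon's 95% critical value as a part of the range, and chance gives about 1 in 20. CLIPΔ library B was low for miR-30a-3p, at 986 RPM beside 1244, 1252 and 1255. CLIPΔ library A was high for miR-30b-3p, at 163 RPM beside 96.9 to 107, and for miR-30c-2-3p, at 92.3 RPM beside 48.9 to 55.7. *Ago2* KO library 2 was high for miR-30c-1-3p, at 241 RPM beside 177 to 188. *Ago2* KO library 1 had a log2 ratio of miR-30b-5p to miR-30b-3p of 1.28, beside 0.56 to 0.68. *Ago2* KO library 3 had 3.73% of miRNA values in the family, beside 3.60% in the other 3.

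The difference in miR-30a-3p between cells with and without the CLIPΔ edit was not the same in the presence and absence of *Ago2* by the interaction test (-0.52 on the log2 scale, limma adjusted p = 0.0205, over 4 libraries per genotype), a call lost when libraries were centred on their median.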

How the results depend on the processing

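Values of single members under alternatives were counted for differences between genotypes that exceeded their SE in the main fit. The interaction and members within their SE of 0 were left out, and some of the latter also turned. For example, miR-30e-5p ranged from -0.07 to 0.55 in CLIPΔ against WT when a library was left out. By edgeR miR-30a-5p was at -0.27 in *Ago2* KO/CLIPΔ against CLIPΔ. Of the values counted, 304 kept their direction and side of the threshold, 21 lost and 6 gained a call, and 7 turned. Those 7 had no adjusted p under 0.05: in *Ago2* KO against WT, miR-30a-5p was at -0.027 with median centring and -0.39 by edgeR, and edgeR gave -0.042 for miR-30a-3p and -0.20 for miR-30c-1-3p; by edgeR miR-30b-3p was at 0.047 in *Ago2* KO/CLIPΔ against *Ago2* KO, and miR-30c-1-3p at -0.071 and miR-30e-5p at -0.00326 in *Ago2* KO/CLIPΔ against CLIPΔ. Members called in CLIPΔ against WT went from 0 to 2 in the fit over 16 libraries, to 1 with the replicate block, and ranged from 0 to 2 when a library was left out. In *Ago2* KO against WT 4 of the 7 remained with median centring and 4 by edgeR, while calls over all miRNAs went from 199 to 194 and 191. When a library was left out, 5 to 7 members were called. The call on miR-30c-1-3p was also lost without the filter (limma adjusted p = 0.0664) and in the fit over 16 libraries (0.102). In *Ago2* KO/CLIPΔ against CLIPΔ the members called went from 4 to 6 without the filter. None remained in *Ago2* KO/CLIPΔ against *Ago2* KO by edgeR (0) or in the fit over 16 libraries (0), with 0 to 2 when a library was left out. The interaction kept 0 members with median centring and 1 to 2 without a library, and called 2 with the block, an alternative chosen after seeing the data. Arm ratios called went from 0 to 1 with the block (CLIPΔ against WT), from 0 to 1 with a pseudocount of 10 (*Ago2* KO against WT, 0 to 2 without a library), and from 1 to 0 or 1 without a library (*Ago2* KO/CLIPΔ against CLIPΔ). The block changed no other call on a member or arm ratio.

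Nfyc and targets called ranged from 5 to 9 of 9 in *Ago2* KO against WT (5 without *Ago2* KO library 3 or 4) and from 5 to 7 of 8 in *Ago2* KO/CLIPΔ against CLIPΔ (5 without CLIPΔ library 1). The *Ago2* KO share was 3.48% by inferred reads.

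Over all miRNAs, calls in CLIPΔ against WT were 63, with 136 without the filter, 100 in the fit over 16 libraries and 125 with the block. Without the filter, 199 became 359 in *Ago2* KO against WT, in *Ago2* KO/CLIPΔ against CLIPΔ 205 became 373, and in the interaction 123 became 211. Calls in *Ago2* KO/CLIPΔ against *Ago2* KO went from 121 to 68 by edgeR and 51 over 16 libraries, and the share of calls that were higher from 41.3% to 75% by edgeR. Over all genes, the block moved 0 to 333 in CLIPΔ against WT and 353 to 804 in *Ago2* KO/CLIPΔ against *Ago2* KO. The cause of these moves was not tested. The libraries of both genotypes without *Ago2* are shallower than the others, and miR-30c-5p rests on at most 20 inferred reads in any library.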
